A study of Homo sapiens with 11 samples.

Results

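Wnt ligands, their Frizzled receptors, the secreted DKK and SFRP antagonists and a set of Wnt target or feedback genes were followed across 5 groups of a human retinal pigment epithelium (RPE) line. The members were taken by symbol alone: genes named WNT, FZD, DKK or SFRP with a number, plus AXIN2, LEF1, TCF7, LGR5, NKD1, RNF43 and ZNRF3. The rule found 44 of the 60605 features in the deposited table: 19 ligands, 10 receptors, 8 antagonists and 7 target or regulator genes. Polyadenylated RNA was sequenced from 11 libraries of stable ARPE-19 cells, an established RPE line, taken 4 days into expression of an open reading frame (ORF). The control group carried GFP, a fluorescent protein (3 libraries), and the other groups carried Oct4, Sox2, Klf4 or the 3 factors together, labelled OSK (2 libraries each). No group lacks an ORF, so every comparison is between cells that express a transgene. The labels do not give the promoter, the species of the ORFs, whether a line is a clone or a pool, or what "mC" in the names of the non-GFP libraries stands for. They also do not say that libraries of a group came from separate cultures, so the p-values below measure only the spread between these libraries.

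As background, Wnt proteins are secreted, lipid-modified ligands that bind Frizzled receptors together with LRP co-receptors. Binding keeps the cytoplasmic destruction complex from degrading beta-catenin, which then enters the nucleus and acts with TCF and LEF factors, while other Wnt proteins act through Frizzled without beta-catenin. SFRP proteins bind Wnt ligands outside the cell, DKK1 blocks LRP co-receptors, and AXIN2, NKD1, ZNRF3 and RNF43 are feedback inhibitors that the pathway itself commonly switches on. In the eye, Wnt signalling takes part in specifying and maintaining the RPE.

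Values are the deposited normalised counts, that is reads divided by 1 factor per library, and libraries held 15053300 to 19791775 reads. In each labelled line the ORF gene was high: POU5F1, which encodes Oct4, was at 67326 and 66823 in the Oct4 libraries against 252 to 276 in GFP. SOX2 was at 29106 and 29141 in the Sox2 libraries against 43.7 to 82.4 in GFP, and KLF4 was at 24205 and 22142 in the Klf4 libraries against 45.5 to 124 in GFP. The OSK libraries carried all 3, at 17582 to 24470. GFP replicate 1 stood apart, with 42956 features detected and 67.7% of 405 olfactory receptor genes with a read. OSK replicate 1 had 32493 features and 23.0%, and the other 9 libraries had 25853 to 26971 features and 4.94% to 8.15%. RPE marker genes (14 listed, 11 above the filter on low values) summed to 12860 to 16594 in GFP, 4302 to 4899 in Oct4, 2486 to 2553 in Sox2, 8248 to 10030 in Klf4 and 5624 to 6016 in OSK. PMEL, TYRP1, MITF and OTX2 carried most of this sum, and not every marker moved with it. PMEL fell in Klf4 to 1356 and 1184 (4094 to 6067 in GFP), while OTX2 stood there at 2372 and 2267 (1804 to 1952 in GFP). MLANA, a minor part of the sum, was at 29.2 and 30.8 in Sox2 and 5.06 to 19.4 in GFP. RPE65 and TTR, defining genes of mature RPE, were at most 4.63 and 4.97 in any library. The keratinocyte and surface epithelium markers (6 listed, 5 above the filter) summed to 1669 to 1708 in Klf4, 290 to 349 in GFP, 326 to 332 in Oct4, 341 to 369 in Sox2 and 124 to 176 in OSK. The Klf4 sum was carried by KRT16 (1317 and 1289) and KRT14 (111 and 147), while CDH1 stood at 187 and 219 there against 199.6 to 259 in GFP, and KRT5 was at most 4.97 in any library. Fibroblast markers (8 listed, 5 above the filter) summed to 13899 to 16440 in GFP, 10297 to 13233 in Oct4, 12840 to 15532 in Sox2, 7302 to 8540 in Klf4 and 5152 to 5953 in OSK. The sum was carried by PDGFRB and COL1A1, which moved in opposite directions in Sox2. There PDGFRB stood at 7099 and 5770 (10874 to 11534 in GFP), and COL1A1 at 8369 and 7029 (2884 to 4845 in GFP). COL3A1, LUM and DCN were at most 12.9 in any library. Neural markers (4 listed, 1 above the filter) summed to 313 to 385 in GFP and 44.6 to 128 in the other lines. The part of these differences in the Wnt results was not tested, and in bulk RNA fewer cells of a type cannot be told apart from less RNA per cell.

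A feature was tested when its value reached 10 in at least 2 libraries, which 28 of the 44 members and 18828 features in all did. The other 16 members were WNT1, WNT2, WNT3A, WNT6, WNT7A, WNT7B, WNT8A, WNT9B, WNT10A, WNT16, FZD10, DKK2, DKK4, SFRP5, LGR5 and RNF43. All 16 had their highest value in GFP replicate 1, the library with the most features detected. There the 16 summed to 184 reads, led by WNT1 with 27 and WNT9B with 24, and in the other 10 libraries they summed to 7 to 25 reads, with at most 8 reads for any of them. LGR5, the R-spondin receptor known as a stem cell marker, had 12 reads in GFP replicate 1 and at most 1 in any other library. Outside GFP replicate 1, no library thus showed more than 8 reads of any of these genes at this depth. They enter no single-gene comparison in the main test. The ligands, receptors and antagonists among them do enter the sums per kilobase of exon given below.

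Among the 28 tested members, 15 differed between Oct4 and GFP (6 higher, 9 lower), at an adjusted p under 0.05 in limma, a linear model of log2(value + 1). Over all features tested, 37.3% differed in that comparison, 20.1% higher and 17.2% lower. Between Sox2 and GFP 16 differed (8 higher, 8 lower), against 41.6% of all features (21.7% higher, 19.9% lower). Between Klf4 and GFP 15 differed, 2 higher and 13 lower, against a background of 33.5% (17.6% higher, 16% lower). Between OSK and GFP 14 differed, 2 higher and 12 lower, against a background of 39.7% (19.7% higher, 20% lower). With library factors computed by TMM over all features, the OSK split was 3 higher and 8 lower. The median log2 change of the members was -0.13 in Oct4, -0.15 in Sox2, -0.36 in Klf4 and -0.48 in OSK, while the median of all features was -0.02, -0.02, -0.02 and -0.01. The 4 comparisons share the GFP libraries. Of the calls, 10 in Oct4, 14 in Sox2, 10 in Klf4 and 9 in OSK were kept in all 23 alternative settings, which included leaving out each library in turn. Shares of all features were not computed for calls kept in all settings or for splits under TMM factors over all features. Such counts, here and below, therefore have no background. In a test of any difference among the 5 groups, 24 of the 28 members were called, against 65.7% of all features, and WNT5A, WNT8B, WNT11 and LEF1 were not.

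**Figure D1:**
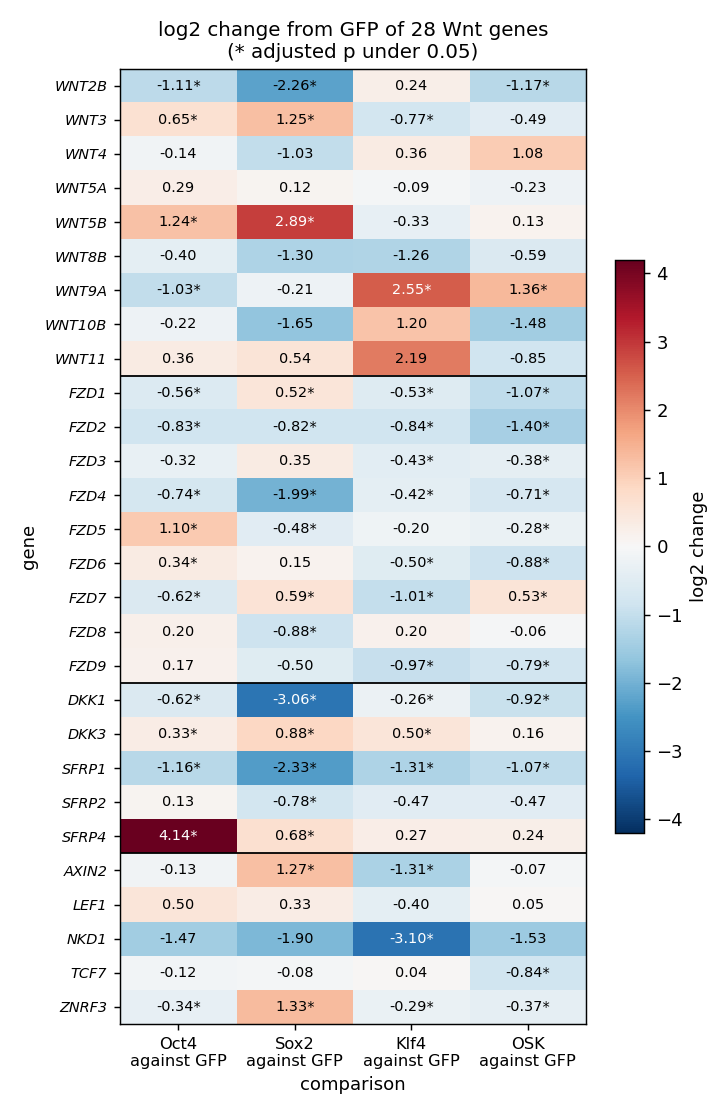
Rows are the 28 tested Wnt genes, ordered as ligands, receptors, antagonists, and target or regulator genes with black lines between these classes; columns are the comparisons of each line with GFP; colour and number give the log2 change, and a star marks a limma adjusted p under 0.05. SFRP1 is lower in all 4 columns, SFRP4 stands out in Oct4 (4.14), DKK1 in Sox2 (-3.06) and WNT9A in Klf4 (2.55), and the Klf4 and OSK columns hold 13 and 12 starred decreases.

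The most abundant ligand transcript of the control cells was WNT2B, which signals through beta-catenin and takes part in eye development. It stood at 2624, 3175 and 3668 in GFP, 1276 and 1650.4 in Oct4, 595 and 717 in Sox2, 4025 and 3389 in Klf4 and 1354 and 1423 in OSK. All Oct4, Sox2 and OSK libraries lay below all GFP libraries, the Sox2 ones lowest, while Klf4 overlapped GFP. WNT2B fell in Sox2 to 20.8% of the GFP mean (log2 change -2.26 ± 0.13 SE, adjusted p = 1.44e-09 by limma), and less far in Oct4 (log2 change -1.11 ± 0.13 SE, adjusted p = 6.16e-06 by limma) and in OSK (log2 change -1.17 ± 0.13 SE, adjusted p = 3.03e-06 by limma). Oct4 and OSK, at 46.4% and 44.0% of GFP, differed from each other by a log2 change of -0.06 with a 95% interval of -0.37 to 0.24. OSK lay below Klf4 (log2 change -1.41 ± 0.14 SE, adjusted p = 2.77e-06 by limma) and above Sox2 (log2 change 1.09 ± 0.14 SE, adjusted p = 1.63e-05 by limma). WNT2B lies at chr1:112466541-112530165 (plus strand, GRCh38), and 21.2% of its exon bases are shared with ST7L on the other strand, which ranged only from 299 to 450 over all libraries. The counting's use of strand is not given in the sources used here, so reads from such shared bases cannot be told apart.

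WNT9A, a ligand known from joint and skeletal development, moved in a different pattern. Its values were 294, 332 and 372 in GFP and 2029.9 and 1853 in Klf4, a 5.84-fold rise (log2 change 2.55 ± 0.11 SE, adjusted p = 8.46e-11 by limma). OSK stood between, at 812 and 891, which was 2.56-fold above GFP (log2 change 1.36 ± 0.11 SE, adjusted p = 5.85e-08 by limma) and below Klf4 (log2 change -1.19 ± 0.12 SE, adjusted p = 2.02e-06 by limma). The 2 groups that carry Klf4 were thus higher than every other library. Oct4 went the other way, at 151 and 173, all below GFP (log2 change -1.03 ± 0.11 SE, adjusted p = 1.49e-06 by limma). Sox2, at 275 and 297, overlapped GFP by 1 library (log2 change -0.21 ± 0.11 SE, adjusted p = 0.134 by limma), and without GFP replicate 1 it was called lower (log2 change -0.30, adjusted p = 0.0281). Oct4 against Klf4 gave a log2 change of -3.58, the widest fitted distance between any 2 groups for a tested ligand. WNT9A lies at chr1:227918656-227947898 (minus strand) and shares no exon bases with another annotated gene. Its nearest protein-coding Wnt neighbour, WNT3A, lies 59152 bases away and had 16 reads in GFP replicate 1 and at most 3 in any other library.

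WNT3, a ligand of the beta-catenin branch, and WNT5B, which mostly acts without beta-catenin, were highest in the Sox2 line. WNT3 values were 83.4, 67.8 and 78.7 in GFP, 136 and 106 in Oct4, 191 and 176 in Sox2, 45.1 and 43.4 in Klf4 and 46.6 and 62.7 in OSK. The Sox2 libraries were the highest and the Klf4 ones the lowest, and OSK was not called against GFP, although it was without OSK replicate 2 (-0.70, adjusted p = 0.0393). WNT3 rose 2.39-fold in Sox2 (log2 change 1.25 ± 0.20 SE, adjusted p = 8.36e-05 by limma). It was also called higher in Oct4 (log2 change 0.65 ± 0.20 SE, adjusted p = 0.0167 by limma), but not without GFP replicate 2 (0.56, adjusted p = 0.0582) or without Oct4 replicate 1 (0.47, adjusted p = 0.181), and lower in Klf4 (log2 change -0.77 ± 0.20 SE, adjusted p = 0.00631 by limma). OSK was below both Oct4 (log2 change -1.14 ± 0.22 SE, adjusted p = 0.000487 by limma) and Sox2 (log2 change -1.74 ± 0.22 SE, adjusted p = 7.86e-06 by limma).

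WNT5B stood at 36.7, 18.2 and 7.78 in GFP, a wide spread, and at 142 and 130.2 in Sox2, well above every other library. It rose in Sox2 (log2 change 2.89 ± 0.47 SE, adjusted p = 0.000117 by limma). Oct4 values were 38.3 and 48.1, the lower of them just above the highest GFP library, and the call there (log2 change 1.24 ± 0.47 SE, adjusted p = 0.0495 by limma) was lost in 17 of 23 settings. Without GFP replicate 3 the Oct4 change was 0.71 (adjusted p = 0.189), without GFP replicate 2 it was 1.27 (0.0786), and without Oct4 replicate 1 or 2 it was 1.40 (0.116) or 1.09 (0.231). Leaving out any 1 Sox2, Klf4 or OSK library gave 1.24, with adjusted p from 0.0515 to 0.069. Klf4 (15.0 and 12.6) and OSK (26.0 and 14.3) overlapped GFP. OSK, which also carries Sox2, was far below the Sox2 line (log2 change -2.75 ± 0.52 SE, adjusted p = 0.000453 by limma).

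**Figure D2:**
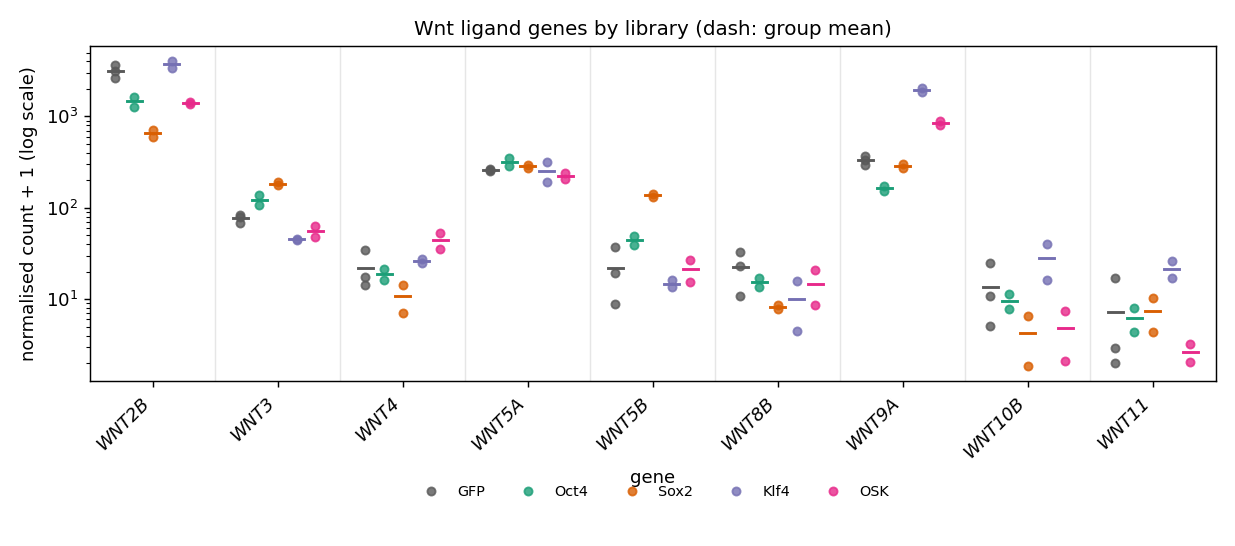
Each point is 1 library's normalised count + 1 on a log axis for the 9 tested ligands, coloured by group, with a dash at the group mean. WNT9A splits into high Klf4 and OSK libraries and low Oct4 ones, WNT2B is lowest in Sox2, WNT3 and WNT5B are highest in Sox2, and the GFP points of WNT4, WNT10B and WNT11 reach highest in GFP replicate 1.

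The remaining tested ligands were WNT5A, WNT4, WNT8B, WNT10B and WNT11, none of them called against GFP. WNT5A, the best known ligand of the branch without beta-catenin, ranged from 189 to 352 over all libraries, and its log2 changes from GFP ran from -0.23 in OSK to 0.29 in Oct4. Without Klf4 replicate 2 it was called lower in Klf4 (-0.46, adjusted p = 0.0369). WNT4, WNT8B, WNT10B and WNT11 stayed at or below 51.7 in every library, and the GFP libraries alone spread over 1.01 to 15.9 for WNT11. WNT11 stood at 16.2 and 25.1 in Klf4 (log2 change 2.19 ± 0.86 SE, adjusted p = 0.0636 by limma), and without GFP replicate 1 that change was called (3.12, adjusted p = 0.00157). In that setting WNT11 passed the filter only through the Klf4 libraries, as the others were at most 9.42. The call therefore adds no support for a rise in Klf4. WNT4 stood at 34.7 and 51.7 in OSK (log2 change 1.08 ± 0.45 SE, adjusted p = 0.0717 by limma), and was called without GFP replicate 1 (1.46, adjusted p = 0.0112). In Sox2, WNT4, WNT8B and WNT10B were called lower than GFP when single libraries were left out, at -1.30 (adjusted p = 0.0447, without GFP replicate 2), -1.75 (0.0462, without GFP replicate 3) and -2.22 (0.0479, without GFP replicate 2), in that order. WNT4 in Sox2 also passed without Sox2 replicate 1 (-1.55, 0.0426), and WNT8B in Klf4 without Klf4 replicate 2 (-2.17, 0.0422).

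RefSeq promoter windows, from 250 bases before to 50 after the transcript start (GRCh38.p14), were matched for 28 of the 44 members, 33 windows in all. Of these 28 members, 17 were among those tested. No window was matched for AXIN2, ZNRF3, NKD1, SFRP1, FZD2 or FZD7, among others, so their promoters were not searched. The matched windows were searched on both strands for CTTTGAT (a TCF/LEF site), CATTGTT (SOX), ATGCAAAT (the octamer bound by Oct4), GGGTGTGG (KLF) and the shorter CACCC box, which every GGGTGTGG contains on the other strand. The TCF/LEF and KLF strings were in none of the 33 windows, against 2.63% and 3.28% of all 34943 windows. The SOX string was in 1 (3.34% of all windows), the octamer in 1 (1.77%) and the CACCC box in 25 (59.8%). WNT2B and WNT9A are shown as the ligands that lead the ligand sums given next, and capitals mark matches. The upstream WNT2B window (chr1:112466291-112466590, plus strand, 57.7% GC) holds the only SOX string among the matched windows, at bases 277 to 283, counted from 1 at the 5′ end. The string thus begins 26 bases after the transcript start. The other WNT2B window (chr1:112508715-112509014, 78.7% GC) is not shown. It has no SOX string and has the CACCC box as GGGTG at bases 74 to 78. The WNT9A window (chr1:227947883-227948182, minus strand, 83% GC, 53 CpG) holds none of the 5 strings, which says only that these letters are absent from it.
WNT2B: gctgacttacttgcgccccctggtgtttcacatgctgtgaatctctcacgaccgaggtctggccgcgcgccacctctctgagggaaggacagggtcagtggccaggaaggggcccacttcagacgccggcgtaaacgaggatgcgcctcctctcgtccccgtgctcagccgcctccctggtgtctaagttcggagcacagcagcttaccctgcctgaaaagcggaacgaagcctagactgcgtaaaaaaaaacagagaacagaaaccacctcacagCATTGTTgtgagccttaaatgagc
WNT9A: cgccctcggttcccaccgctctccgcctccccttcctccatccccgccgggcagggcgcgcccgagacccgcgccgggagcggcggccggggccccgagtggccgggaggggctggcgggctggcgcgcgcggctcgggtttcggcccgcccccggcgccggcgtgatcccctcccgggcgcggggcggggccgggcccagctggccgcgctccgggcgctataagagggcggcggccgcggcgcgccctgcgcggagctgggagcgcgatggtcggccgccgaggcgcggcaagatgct

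Per kilobase of exon (GENCODE release 29), which allows levels of different genes to be set side by side, all ligands together summed to 432 ± 22.4 (SD, n = 3) normalised counts per kb in GFP. The sum was 256 ± 13.6 (SD, n = 2) in Oct4, 248 ± 8.12 in Sox2, 862 ± 43.2 in Klf4 and 394 ± 25.7 in OSK. Klf4 cells thus held the largest ligand sum. WNT2B made up 58.2% ± 8.65 of the sum in GFP and 45.3% ± 5.82 in Oct4, where it led. In the other lines WNT9A led, with 29.01% ± 0.65 in Sox2, 56.7% ± 0.81 in Klf4 and 54.4% ± 0.03 in OSK. WNT3 and WNT5B together with WNT5A took a larger place in Sox2 than in GFP, at 17.1% ± 1.56, 12.8% ± 1.23 and 15.4% ± 0.42. In GFP those 3 held 4.09% ± 0.32, 1.14% ± 0.79 and 8.17% ± 0.67, and in Oct4 10.98% ± 2.46, 3.91% ± 0.42 and 16.95% ± 3.31. WNT5A itself was not called against GFP in any line, while the ligand sum was lower in Oct4 and Sox2. These shares rest on union exon lengths, and WNT2B, with 12561 annotated exon bases, is divided by the whole of them, while WNT9A has 3971. Before that division the WNT2B mean was above the WNT9A mean in every group. The means were 656 against 286 in Sox2, 3707 against 1942 in Klf4 and 1389 against 851 in OSK. The lead of WNT9A in those lines thus depends on the exon lengths used.

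Most Frizzled receptor transcripts were lower in the Klf4 and OSK lines than in GFP. Of 9 tested receptors, 7 were lower and none higher in Klf4, and 7 lower and 1 higher in OSK, with median log2 changes of -0.50 and -0.71. Over all features 16% were lower and 17.6% higher in Klf4, and 20% lower and 19.7% higher in OSK. In both Oct4 and Sox2 4 receptors were lower and 2 higher, with medians of -0.32 and -0.48, where 17.2% and 19.9% of all features were lower and 20.1% and 21.7% higher. Calls kept in all 23 settings numbered 5 in Klf4 (FZD1, FZD2, FZD4, FZD6 and FZD7, all lower) and 4 in OSK (FZD1, FZD2, FZD4 and FZD6, all lower). Frizzleds are membrane proteins with an extracellular cysteine-rich domain that binds Wnt.

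FZD2 stood at 1033, 1012 and 1015 in GFP, 708 and 466 in Oct4, 626 and 529 in Sox2, 522 and 623 in Klf4 and 378 and 394 in OSK. No library of any line reached the GFP level, and the OSK libraries were lowest of all. The decline was largest in OSK (log2 change -1.40 ± 0.14 SE, adjusted p = 6.12e-07 by limma), and in the single-factor lines the log2 changes were -0.83, -0.82 and -0.84, each called. FZD1 was at 2102, 2263 and 2191 in GFP, 1563 and 1403 in Oct4, 1486 and 1543 in Klf4 and 1009 and 1066 in OSK, but at 2873 and 3414 in Sox2. It therefore fell in 3 lines, most in OSK (log2 change -1.07 ± 0.08 SE, adjusted p = 2.74e-08 by limma), and rose in Sox2 (log2 change 0.52 ± 0.08 SE, adjusted p = 6.48e-05 by limma). OSK lay below each single-factor line for FZD1, with log2 changes of -0.51 against Oct4, -1.59 against Sox2 and -0.55 against Klf4, all called in all settings.

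FZD4, the receptor for Norrin as well as Wnt and known for its part in retinal vessels, was at 3492, 3788 and 4108 in GFP and 866 and 1055 in Sox2. Sox2 held 25.3% of the GFP mean (log2 change -1.99 ± 0.09 SE, adjusted p = 5.31e-11 by limma). The other lines lay between, at 2171 and 2363 in Oct4, 2866 and 2783 in Klf4 and 2268 and 2357 in OSK, and each was called lower, with log2 changes of -0.74, -0.42 and -0.71. FZD4 shares 19.0% of its exon bases with PRSS23 on the other strand, an abundant gene at 8062 to 9874 in GFP, 7099 to 7433 in Sox2 and 17139 to 19516 in OSK. How far PRSS23 reads enter the FZD4 values cannot be told apart without the strand setting.

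FZD5, a receptor needed in early eye development, rose in Oct4 alone among the lines. Its values were 566, 599 and 606 in GFP and 1244 and 1281 in Oct4 (log2 change 1.10 ± 0.09 SE, adjusted p = 1.52e-07 by limma), while Sox2 (424 and 424), Klf4 (558 and 475) and OSK (444 and 529) lay below every GFP library. Sox2 was called lower (log2 change -0.48 ± 0.09 SE, adjusted p = 0.000641 by limma), and OSK, which carries Oct4 too, was below the Oct4 line (log2 change -1.38 ± 0.10 SE, adjusted p = 2.83e-08 by limma). The OSK decrease from GFP itself (log2 change -0.28 ± 0.09 SE, adjusted p = 0.0248 by limma) was lost without OSK replicate 1 (-0.16, adjusted p = 0.32), GFP replicate 2 (-0.27, 0.0596) or GFP replicate 3 (-0.26, 0.0694).

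FZD7, known from embryonic stem cells, was at 413, 446 and 409 in GFP, 317 and 239 in Oct4, 644 and 625 in Sox2, 192 and 229 in Klf4 and 549.6 and 679.7 in OSK. The groups did not overlap with GFP: Oct4 and Klf4 were lower, Sox2 and OSK higher. The Klf4 decrease was the largest (log2 change -1.01 ± 0.13 SE, adjusted p = 1.37e-05 by limma), and OSK stood 1.54 log2 units above Klf4 (log2 change 1.54 ± 0.14 SE, adjusted p = 7.22e-07 by limma) and was not called against Sox2 (log2 change -0.05, 95% interval -0.35 to 0.24). The OSK rise over GFP (log2 change 0.53 ± 0.13 SE, adjusted p = 0.00323 by limma) was lost without OSK replicate 2 (0.38, adjusted p = 0.0855).

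FZD6 and FZD8 changed by less than 1 log2 unit. FZD6, which can restrain beta-catenin signalling, ranged from 2348 to 3127 in GFP, fell in Klf4 (-0.50) and OSK (-0.88), and was called higher in Oct4 (0.34), a call lost without Oct4 replicate 2 (0.28, adjusted p = 0.154). FZD8 fell in Sox2, from 665 to 730.03 in GFP to 372 and 396 (log2 change -0.88 ± 0.09 SE, adjusted p = 1.46e-06 by limma), and was not called in the other lines. FZD3 (123 to 256 over all libraries) was called lower in Klf4 and OSK, and FZD9 (20.8 to 56.9) likewise. FZD3 was not called in Sox2, though it was without Sox2 replicate 2 (0.52, adjusted p = 0.0349). These 4 calls were lost on leaving out single libraries: with OSK replicate 1 left out the FZD3 change in OSK was -0.23 (adjusted p = 0.368), with OSK replicate 2 left out the FZD9 change in OSK was -0.69 (0.217), and with Klf4 replicate 1 left out the changes in Klf4 were -0.42 (0.121) for FZD3 and -0.72 (0.19) for FZD9. FZD3 in OSK was also lost without any 1 GFP, Oct4 or Klf4 library, FZD9 in OSK without any 1 GFP or Oct4 library or OSK replicate 1, FZD3 in Klf4 without GFP replicate 2, GFP replicate 3 or Klf4 replicate 2, and FZD9 in Klf4 without GFP replicate 2.

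Per kilobase of exon the 10 receptor genes summed to 2415 ± 154 (SD, n = 3) in GFP, 2168 ± 19.2 (n = 2) in Oct4, 1976 ± 63.0 in Sox2, 1714 ± 50.9 in Klf4 and 1442 ± 58.4 in OSK. FZD6 led in every group, from 26.0% of the sum in OSK to 40.3% in Oct4. The place of FZD4 shrank from 21.3% ± 0.65 in GFP to 6.57% ± 0.71 in Sox2, where FZD1 came next after FZD6 with 22.8% ± 2.05.

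**Figure D3:**
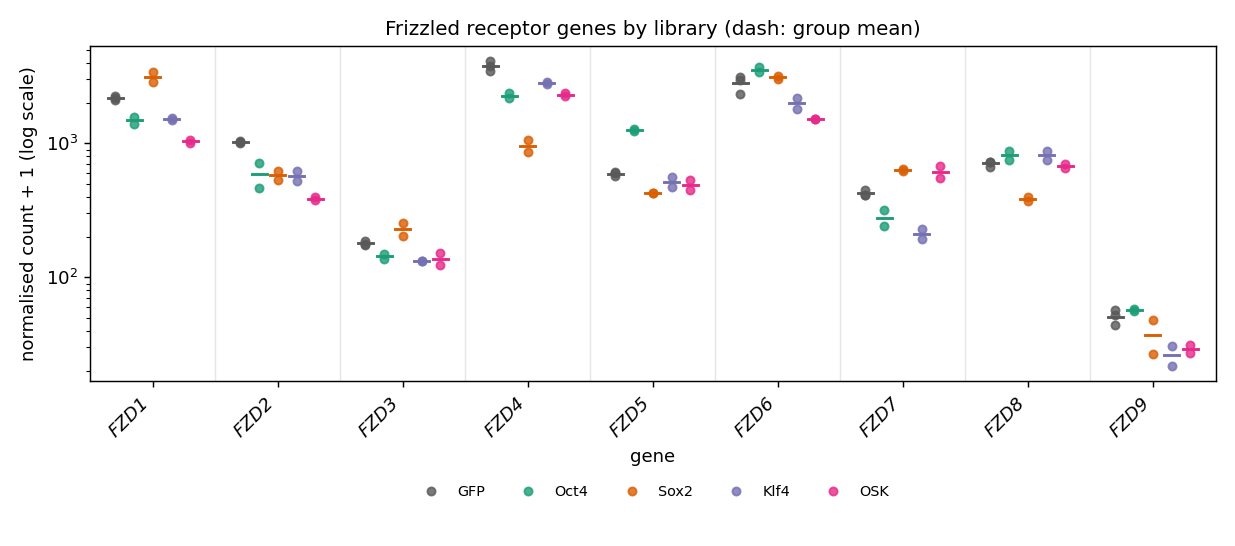
Each point is 1 library's normalised count + 1 on a log axis for the 9 tested Frizzled genes, coloured by group, with a dash at the group mean. FZD5 is highest in Oct4, FZD4 lowest in Sox2, FZD1 and FZD2 lowest in OSK, and FZD7 is high in Sox2 and OSK and low in Klf4.

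SFRP1, a secreted Wnt-binding protein and the most abundant antagonist of the control cells, fell in every line. It was at 15041, 16557 and 17479 in GFP, 7128 and 7497 in Oct4, 3037 and 3451 in Sox2, 6924 and 6248 in Klf4 and 7728 and 7828 in OSK. The lowest GFP library was above every other library, and the Sox2 libraries were below all others. Relative to GFP the mean was 19.8% in Sox2 (log2 change -2.33 ± 0.08 SE, adjusted p = 3.68e-12 by limma), 40.3% in Klf4 (log2 change -1.31 ± 0.08 SE, adjusted p = 4.65e-09 by limma), 44.7% in Oct4 (log2 change -1.16 ± 0.08 SE, adjusted p = 1.29e-08 by limma) and 47.5% in OSK (log2 change -1.07 ± 0.08 SE, adjusted p = 2.8e-08 by limma). OSK differed from Oct4 by 0.09 log2 units (95% interval -0.10 to 0.28) and from Klf4 by 0.24 (0.06 to 0.43), neither called. Against Klf4 it was called higher with DESeq2 (adjusted p = 0.0336), with only those groups fitted (0.0354) and without GFP replicate 1 (0.24, 0.0133). OSK lay above Sox2 (log2 change 1.26 ± 0.09 SE, adjusted p = 1.06e-08 by limma).

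SFRP4, of the same family, rose 17.8-fold in the Oct4 line, the largest change of any member. Its values were 218, 202 and 201 in GFP and 4109 and 3256 in Oct4 (log2 change 4.14 ± 0.24 SE, adjusted p = 1.94e-09 by limma). No other library came near the Oct4 ones: Sox2 had 407 and 271, Klf4 230.2 and 273 and OSK 164 and 364. OSK, in which POU5F1 was at 19020.35 and 19542, lay far below Oct4 (log2 change -3.90 ± 0.26 SE, adjusted p = 9.28e-09 by limma). The 2 OSK libraries disagreed, and without OSK replicate 1 the OSK level was called above GFP (0.81, adjusted p = 0.00496). The Sox2 call (log2 change 0.68 ± 0.24 SE, adjusted p = 0.0329 by limma) was lost without Sox2 replicate 1 (0.38, adjusted p = 0.362), GFP replicate 2 (0.66, 0.0657) or GFP replicate 3 (0.66, 0.0747).

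DKK1, which binds LRP co-receptors and blocks beta-catenin signalling, showed its change mainly in Sox2. It was at 2578, 3045 and 2787 in GFP, 1728 and 1923 in Oct4, 318 and 354 in Sox2, 2177 and 2503 in Klf4 and 1410.3 and 1549.8 in OSK. All libraries of the 4 lines lay below the GFP libraries, and those of Sox2 were lowest by a wide margin, at 11.97% of the GFP mean (log2 change -3.06 ± 0.09 SE, adjusted p = 7.52e-13 by limma). OSK (log2 change -0.92 ± 0.09 SE, adjusted p = 6.39e-07 by limma) and Oct4 (log2 change -0.62 ± 0.09 SE, adjusted p = 4.96e-05 by limma) fell less, and OSK stood 2.14 log2 units above the Sox2 line. The Klf4 call (log2 change -0.26 ± 0.09 SE, adjusted p = 0.0357 by limma) was lost without Klf4 replicate 1 (-0.16, adjusted p = 0.347), GFP replicate 2 (-0.20, 0.131) or GFP replicate 3 (-0.26, 0.0712). DKK1 shares 9.61% of its exon bases with PRKG1-AS1, an antisense gene at 20.9 or less in every library.

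DKK3, a divergent family member whose role in Wnt signalling is unsettled, was the one antagonist called higher in most lines. SFRP4 was called higher only in Oct4 and Sox2 in the main test, though its mean was above the GFP mean in every line. It ranged from 6987 to 7906 in GFP and stood at 14732 and 13089 in Sox2 (log2 change 0.88 ± 0.08 SE, adjusted p = 1.18e-07 by limma) and 10791 and 10522 in Klf4 (log2 change 0.50 ± 0.08 SE, adjusted p = 8.49e-05 by limma). Oct4, at 9869 and 9014, was called too (log2 change 0.33 ± 0.08 SE, adjusted p = 0.00299 by limma) but not without Oct4 replicate 1 (0.26, adjusted p = 0.0601), and OSK, at 8458 and 8375, was not (log2 change 0.16 ± 0.08 SE, adjusted p = 0.108 by limma). SFRP2 (31.7 to 82.4 over all libraries) was called in Sox2 (log2 change -0.78 ± 0.27 SE, adjusted p = 0.0279 by limma), a call lost without Sox2 replicate 2 (-0.55, adjusted p = 0.231), GFP replicate 2 (-0.72, 0.0774) or GFP replicate 3 (-0.80, 0.0538).

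By count, 2 of the 5 tested antagonists were higher and 2 lower in Oct4, 2 higher and 3 lower in Sox2, 1 higher and 2 lower in Klf4, and none higher and 2 lower in OSK. The shares of all features higher and lower were 20.1% and 17.2% in Oct4, 21.7% and 19.9% in Sox2, 17.6% and 16% in Klf4, and 19.7% and 20% in OSK. Per kilobase of exon the 8 antagonist genes summed to 6294 ± 417 (SD, n = 3) in GFP, 5288 ± 177 (n = 2) in Oct4, 3697 ± 187 in Sox2, 4644 ± 23.3 in Klf4 and 4068 ± 96.2 in OSK. SFRP1 held 54.6% ± 1.35 of the sum in GFP and 18.5% ± 2.60 in Sox2, where DKK3 held 74.3% ± 2.45. SFRP4 held 0.92% ± 0.11 in GFP and 19.3% ± 2.52 in Oct4. In every line DKK3 and SFRP1 were the leading antagonists, DKK3 ahead, while in OSK their shares differed by less than 1 SD of DKK3, at 40.9% ± 1.25 and 40.2% ± 0.59.

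**Figure D4:**
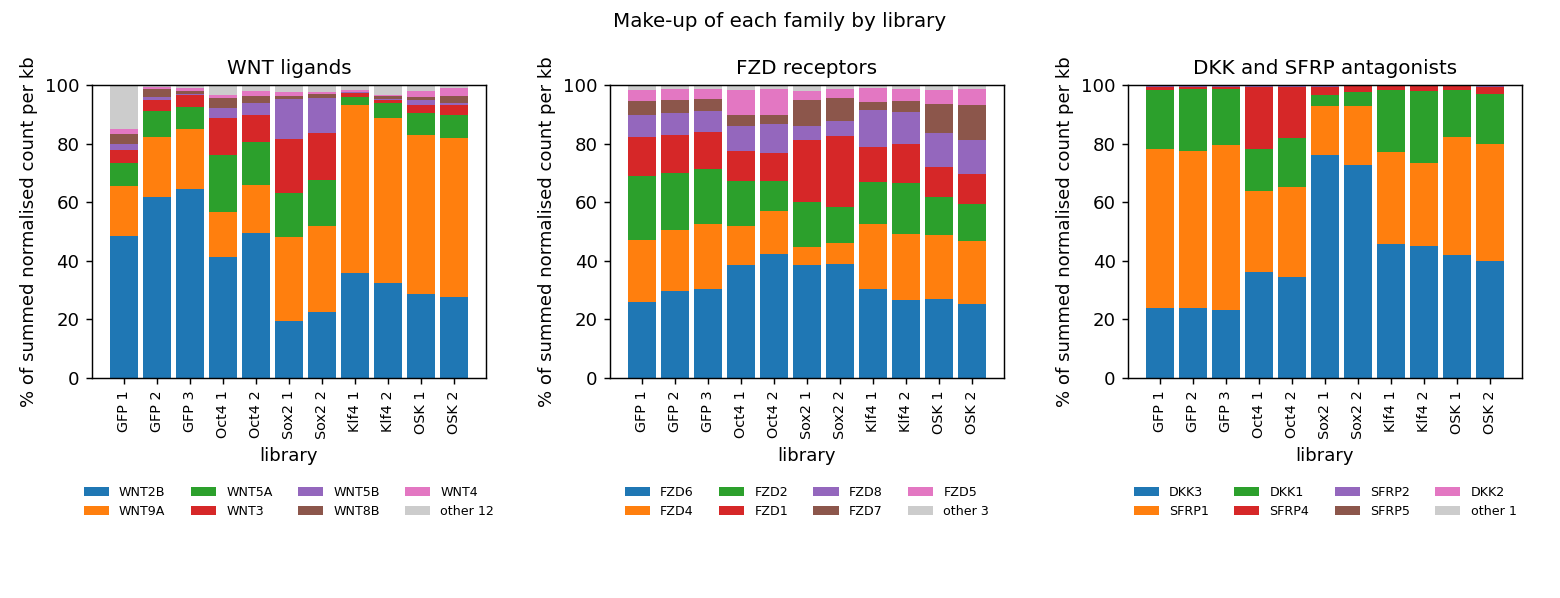
Each bar is 1 library and splits the summed normalised count per kb of exon of a family into its genes, in percent (7 leading genes and the rest in grey). WNT2B gives way to WNT9A in the Klf4 and OSK libraries, FZD4 shrinks in Sox2, SFRP4 takes a visible share in Oct4 and DKK3 fills most of the Sox2 bars; the grey ligand share is largest in GFP replicate 1.

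The promoter windows of SFRP4 and DKK1 are shown as those of the antagonists that changed most in 1 line each. Neither holds the octamer or the SOX string, the SFRP4 window (chr7:37916768-37917067, minus strand, 66.3% GC) has the CACCC box on the other strand, as GGGTG, at bases 103 to 107 and 138 to 142, and the DKK1 window (chr10:52314031-52314330, plus strand, 63.7% GC) has it at bases 40 to 44 and 131 to 135, with GGGTG at 90 to 94.
SFRP4: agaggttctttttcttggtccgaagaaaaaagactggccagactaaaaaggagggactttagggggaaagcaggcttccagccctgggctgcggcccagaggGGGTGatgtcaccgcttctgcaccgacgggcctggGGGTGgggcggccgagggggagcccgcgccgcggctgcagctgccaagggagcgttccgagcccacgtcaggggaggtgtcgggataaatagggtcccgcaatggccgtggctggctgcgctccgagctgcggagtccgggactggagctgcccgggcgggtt
DKK1: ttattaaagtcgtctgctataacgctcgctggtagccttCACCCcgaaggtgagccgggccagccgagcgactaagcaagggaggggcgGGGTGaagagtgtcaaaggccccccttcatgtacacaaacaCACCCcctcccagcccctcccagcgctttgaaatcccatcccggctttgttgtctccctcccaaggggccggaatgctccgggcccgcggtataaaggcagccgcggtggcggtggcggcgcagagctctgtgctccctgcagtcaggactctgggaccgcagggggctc
A match in such a window is a description of its letters and not a bound site. SFRP2 was the member with the octamer, at bases 216 to 223 of its window on the other strand, and its Oct4 values of 82.4 and 60.7 overlapped the GFP values of 60.6, 70.8 and 63.2.

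Of the target and feedback genes, AXIN2 and ZNRF3 rose in Sox2. AXIN2, a scaffold of the destruction complex and the most used readout of beta-catenin signalling, was at 214, 159.8 and 144 in GFP, 344 and 496 in Sox2 and 60.1 and 76.6 in Klf4. The Sox2 libraries were above and the Klf4 ones below every other library. The 2 lines thus moved in opposite directions, with a rise in Sox2 (log2 change 1.27 ± 0.21 SE, adjusted p = 0.00013 by limma), a fall in Klf4 (log2 change -1.31 ± 0.21 SE, adjusted p = 0.000145 by limma) and 2.59 log2 units between them (log2 change 2.59 ± 0.23 SE, adjusted p = 1.68e-07 by limma). Oct4 (140.5 and 172) and OSK (136 and 195) overlapped GFP, with 95% intervals of the log2 change of -0.58 to 0.32 and -0.51 to 0.38. OSK lay above Klf4 (log2 change 1.25 ± 0.23 SE, adjusted p = 0.000874 by limma) and below Sox2 (log2 change -1.34 ± 0.23 SE, adjusted p = 0.000203 by limma). AXIN2 lies at chr17:65528563-65561647 and shares 25.2% of its exon bases with AC004805.1, annotated on the same strand.

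ZNRF3, a membrane ubiquitin ligase that removes Frizzled from the cell surface, was at 349, 327 and 362 in GFP and 811 and 934 in Sox2, a 2.52-fold rise (log2 change 1.33 ± 0.11 SE, adjusted p = 5.57e-08 by limma). The other lines were below GFP, at 279 and 267 in Oct4, 296 and 269 in Klf4 and 292 and 245 in OSK. Their log2 changes were small (-0.34, -0.29 and -0.37), and each of these calls was lost in some settings. In Klf4 the call was lost in 16 of 23 settings, among them the loss of any 1 library other than GFP replicate 2 or an OSK one, with adjusted p = 0.267 without Klf4 replicate 2 (-0.22), in Oct4 without GFP replicate 3 (-0.31, 0.0647) or either Oct4 library (-0.37, 0.0589 and -0.31, 0.116), and in OSK without OSK replicate 2 (-0.24, 0.183). RNF43, the partner of ZNRF3 in that role, had at most 2 reads in any library. Up to 79.8% of its exon bases are shared with other annotated genes, SUPT4H1 and AC004687.2 on the same strand and TSPOAP1-AS1 on the other. How reads from such bases were counted is not given, so the low count does not show that RNF43 is silent.

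NKD1, an inhibitor of Dishevelled, was at 73.5, 11.1 and 28.2 in GFP and 1.16 and 4.57 in Klf4 (log2 change -3.10 ± 0.81 SE, adjusted p = 0.00717 by limma). The GFP values spread widely with replicate 1 highest, and the Klf4 values correspond to only a few reads. Without GFP replicate 1 the Klf4 change was -2.44 (adjusted p = 0.0177), and without Klf4 replicate 1 it was -2.42 and not called (adjusted p = 0.0996). Without GFP replicate 2, NKD1 was also called lower in Sox2 (-2.54, adjusted p = 0.0216) and OSK (-2.18, 0.0491). TCF7, one of the nuclear partners of beta-catenin, fell in OSK, from 260.2, 366 and 399.5 in GFP to 211 and 167 (log2 change -0.84 ± 0.16 SE, adjusted p = 0.000439 by limma). LEF1, another such partner, was between 11.4 and 30.2 in every library and was not called in any of the 4 lines.

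**Figure D5:**
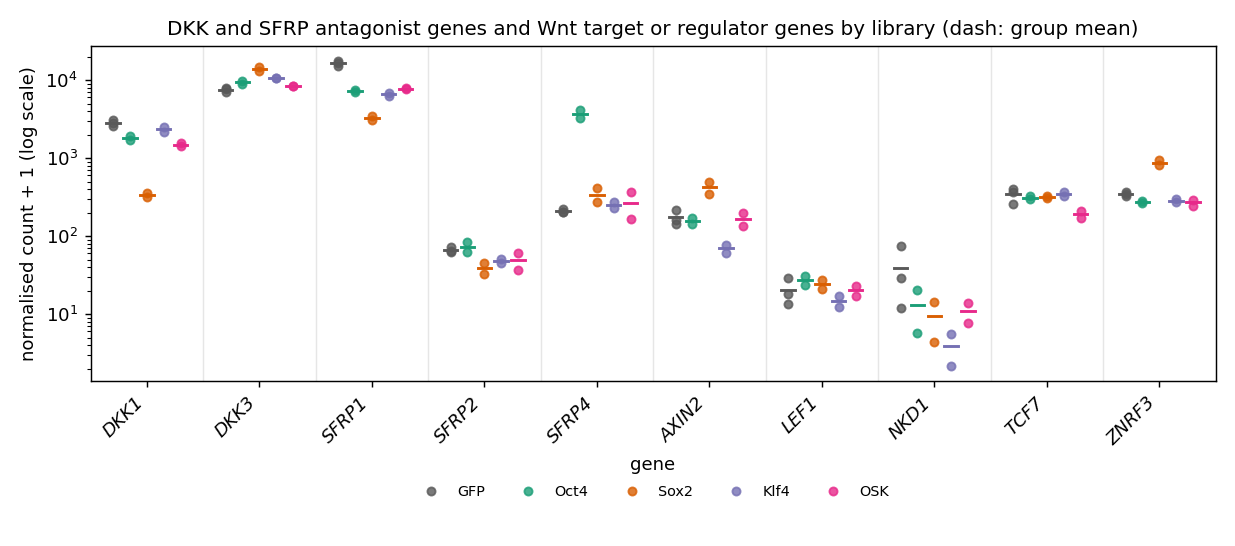
Each point is 1 library's normalised count + 1 on a log axis for the 5 tested antagonists and the 5 tested target or regulator genes, coloured by group, with a dash at the group mean. SFRP1 is highest in GFP, DKK1 lowest in Sox2, SFRP4 highest in Oct4, AXIN2 and ZNRF3 highest in Sox2, and the NKD1 points of GFP are the most scattered.

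The lines were also compared with each other. Between OSK and Klf4, 13 of the 28 members differed (2 higher, 11 lower in OSK), against 21.5% of all features (9.56% higher, 11.9% lower). The count dropped to 7 without OSK replicate 2, and 7 of the calls were kept in all 23 settings: WNT2B, WNT9A, FZD1, DKK1 and TCF7 lower in OSK, and FZD7 and AXIN2 higher. Between OSK and Oct4, 12 differed (2 higher, 10 lower) against 40.3% of all features (18.4% higher, 21.9% lower), and WNT9A and FZD7 were higher in OSK and WNT3, FZD1, FZD5, FZD6 and SFRP4 lower in all settings. Between OSK and Sox2, 17 differed (7 higher, 10 lower) against 40.5% (20% higher, 20.5% lower), the higher ones being WNT2B, WNT4, WNT9A, FZD4, FZD8, DKK1 and SFRP1. Among the single-factor lines, 17 members differed between Oct4 and Sox2, 8 higher and 9 lower in Oct4, against a background of 33.4% (18% higher, 15.4% lower). Between Sox2 and Klf4 18 differed, 9 higher and 9 lower in Sox2, against 40.8% (20.1% higher, 20.7% lower). Between Oct4 and Klf4 12 differed (8 higher and 4 lower in Oct4, background 41.7%, of which 21.8% higher and 20% lower), with 7 higher and 2 lower under TMM factors over all features and 7 in all without Oct4 replicate 1.

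A wider list of 70 pathway genes outside the symbol rule, written from general knowledge, had 57 tested members. In Oct4 30 of them differed from GFP (19 higher, 11 lower), against 37.3% of all features, and in Sox2 30 (18 and 12), against 41.6%. In Klf4 34 differed (12 and 22), against 33.5%, and in OSK 37 (15 and 22), against 39.7%. As shares of the 57 these are 52.6%, 52.6%, 59.6% and 64.9%. Their median log2 change was 0.08, 0.01, -0.23 and -0.08 in that order. By class, the ligand handling and co-receptor genes (15 tested) had 6 higher and 1 lower in Oct4, 7 and 4 in Sox2, 2 and 7 in Klf4, and 5 and 6 in OSK. The 24 tested cytoplasmic genes had 6 higher and 6 lower in Oct4, 7 and 3 in Sox2, 6 and 10 in Klf4, and 4 and 10 in OSK. The shares of all features higher and lower in each line are those given for the antagonists.

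The largest changes in Sox2 were those of RSPO3, a secreted enhancer of Wnt signalling that acts through LGR receptors, with 2.65 ± 2.87 (SD, n = 3) in GFP and 50.2 ± 13.8 (n = 2) in Sox2 (log2 change 4.06 ± 0.71 SE, adjusted p = 0.000218 by limma), and of GPC4, a cell surface glypican (log2 change 2.13 ± 0.14 SE, adjusted p = 3.97e-09 by limma). CCND1, the cell cycle gene often listed as a Wnt target, rose from 5054 ± 913 in GFP to 20718 ± 671 in Sox2 (log2 change 2.05 ± 0.12 SE, adjusted p = 9.2e-10 by limma), and APC, a scaffold of the destruction complex, rose there too (log2 change 1.70 ± 0.12 SE, adjusted p = 1.02e-08 by limma). RSPO3 also led in Oct4, at 12.1 ± 2.32 (log2 change 2.10 ± 0.71 SE, adjusted p = 0.0285 by limma), a change from a control level of at most 6 reads. In Oct4 it was followed by APCDD1 (log2 change -1.86 ± 0.48 SE, adjusted p = 0.00613 by limma), CD44 (log2 change 1.69 ± 0.08 SE, adjusted p = 3.56e-10 by limma) and TBX3 (log2 change 1.12 ± 0.41 SE, adjusted p = 0.0412 by limma). The RSPO3 and TBX3 calls in Oct4 were lost without either Oct4 library, GFP replicate 2 or GFP replicate 3 and on some other omissions, with adjusted p up to 0.168 for RSPO3 and 0.261 for TBX3 and changes down to 1.80 and 0.87. RSPO3 could pass the filter only through Sox2 and Oct4 libraries, as it stood at 2.87 ± 0.79 in Klf4 and 2.19 ± 1.57 in OSK. Its entry into the test thus depended on the lines in which it was called higher. The RSPO3 call in Sox2 was kept in every setting in which RSPO3 was tested, the one with no filter included. Its mean level over all libraries was too low for the stricter alternative filter, which is set on that mean. That filter is therefore no check of the RSPO3 calls. The APCDD1 call in Oct4 was lost without Oct4 replicate 1 (-1.57, adjusted p = 0.0743).

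APCDD1, a membrane-bound Wnt inhibitor, fell furthest in OSK, from 60.9 ± 14.4 in GFP to 3.29 ± 3.13 (log2 change -4.05 ± 0.48 SE, adjusted p = 5.11e-06 by limma), and also fell in Klf4 (log2 change -1.65 ± 0.48 SE, adjusted p = 0.0142 by limma). The Klf4 call was lost without Klf4 replicate 1 (-1.57, adjusted p = 0.0882) or 2 (-1.73, 0.0588). KREMEN2, a receptor for DKK proteins, rose in both Klf4 (log2 change 2.33 ± 0.36 SE, adjusted p = 0.000106 by limma) and OSK (log2 change 2.79 ± 0.36 SE, adjusted p = 1.29e-05 by limma). DACT1, a Dishevelled-binding regulator, fell in both, from 1127 ± 73.7 in GFP to 388 ± 82.8 in Klf4 (log2 change -1.55 ± 0.14 SE, adjusted p = 4.29e-07 by limma) and 242 ± 44.95 in OSK (log2 change -2.22 ± 0.14 SE, adjusted p = 4.7e-09 by limma). BCL9L, a co-activator of beta-catenin, rose in Klf4 (log2 change 1.79 ± 0.07 SE, adjusted p = 5.22e-11 by limma), and TCF7L2, the main TCF factor of many epithelia, rose in OSK from 1389 ± 45.2 to 5525 ± 314 (log2 change 1.99 ± 0.07 SE, adjusted p = 4.09e-12 by limma).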

How the data were processed

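The deposited table gives a signal in normalised counts for 60605 features in 11 libraries. Judged by the values, each library's reads were divided by 1 factor and rounded to 2 decimals before they were deposited, and all values up to 200 are whole multiples of that step within 0.0061 (100%), with at least 99.8% over all values. STAR 2.7.1a and featureCounts 1.6.2 with GRCh38 (GRCm38 is named too) come from the submitters' processing notes, and the annotation, strand setting and normalising tool are not given in the sources used here. GFP replicates 1 and 2 had steps near 1 (0.993 and 1.01), so low values do not separate their reads from whole numbers.

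The main test was limma 3.58.1 in R 4.3.3 (lmFit and eBayes with trend) on log2(value + 1), which understates changes of low genes. It used 1 mean per group over all 11 libraries (6 residual and 9.21 prior degrees of freedom) and Benjamini-Hochberg adjustment over 18828 features with a value of 10 in 2 libraries, and the script was tested on simulated data. On recovered reads, edgeR 4.0.16 called 6774, 7834, 6048 and 7232 features in Oct4, Sox2, Klf4 and OSK against GFP, and DESeq2 1.42.0 called 5943, 6862, 5246 and 6397. Members changed by at least 1 log2 unit, with a group mean of at least 20, were named in full, as were the 4 largest pathway changes per comparison. Members and lists were chosen with earlier results of these data known. Other alternatives were pseudocounts of 0.5 and 5, TMM factors, other filters, only the groups compared, a replicate block and leaving out libraries. Exon lengths, positions and shared exon bases came from GENCODE release 29, promoter windows from RefSeq.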

Additional observations from a re-analysis of the deposited data

How the results depend on the processing

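Of 344 recomputed counts of changed genes (15 counts, 23 settings), 342 stayed within 1.5 times the count reported. The exceptions came from single libraries: leaving out 1 library at a time, the members that differed between OSK and Klf4 numbered 7 to 14 (7 without OSK replicate 2), and those between Oct4 and Klf4 7 to 14 (7 without Oct4 replicate 1). Against GFP the same omissions gave 11 to 15 members in Oct4, 15 to 17 in Sox2, 10 to 15 in Klf4 and 11 to 14 in OSK. Of 40 single gene changes named by the rule, 34 kept direction and call in every setting run and none changed direction. The others were WNT5B, RSPO3, APCDD1 and TBX3 in Oct4, and NKD1 and APCDD1 in Klf4. Same-numbered libraries correlated at -0.07 to 0.44 in their deviations from group means, and 2 of 20 values were over 0.1. Both were between GFP and OSK (0.44 for replicate 1 and 0.31 for replicate 2), the groups whose replicate 1 libraries had the most features detected. In a line of 2 libraries the deviations mirror each other. Pairs of such lines therefore give the same value for both replicate numbers, and the 20 values are not separate checks. With a replicate block, 13 members differed from GFP in Oct4, 15 in Sox2, 14 in Klf4 and 11 in OSK, and 6072, 7051, 5322 and 6469 features in all, against 7018, 7824, 6315 and 7471 without it. Replicate 3 exists only in GFP, so the block fits GFP replicate 3 on its own. Log2 changes from GFP then match those without that library, as for WNT5B in Oct4 (0.71 in both). The lower counts are thus not a measure of pairing, and these 2 settings are not separate alternatives. The block added calls of WNT8B in Sox2 (-1.75, adjusted p = 0.0444) and WNT2B in Klf4 (0.36, adjusted p = 0.0401). With 2 libraries a line and at most 73.5 normalised counts in any library for WNT4, WNT8B, WNT10B, WNT11, LEF1 and NKD1, changes of these genes were not measured precisely. Of the GFP libraries, replicate 1 was the highest for each of them except LEF1.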
